A study of Homo sapiens with 24 samples.

Results

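The 7 genes that mark vagal and airway-reaching sensory neurons followed here were PHOX2A, GLP1R, NPY1R, NPY2R, P2RY1, CALB1 and HTR3A. They were chosen by symbol and not by a rule on measured values, though earlier results of these data were known. Each matched 1 of the 36468 entries of the count table, so 7 of 7 were found. The neurons were grown from the WT human embryonic stem cell line H9WAO9, through 12 days of vagal neural crest induction, 4 days as spheroids, 6 days of sensory differentiation and 2 to 3 weeks of maturation. Mature cultures then received 5 days of TGF-β at 2 ng/ml, of IL-4 at 10 ng/ml together with IL-13 at 3 ng/ml, or of vehicle, which was PBS with 0.1% BSA. The remaining group received IL-6, for which the labels gave neither dose nor time. Each of the 4 groups had 1 library in each of 6 batches, which were separate differentiations of this line, giving 24 libraries of polyadenylated RNA. The libraries were made from whole cultures that also held glial and mesenchymal cells, so fewer cells of a type and less RNA per cell cannot be told apart for any gene below.

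Vagal sensory neurons sit in the nodose ganglion, which develops from placodes, and in the jugular ganglion, which develops from neural crest. The paired-type homeodomain factor PHOX2A takes part in the development of visceral sensory and autonomic neurons and marks nodose neurons, whereas PRDM12 marks jugular neurons. The other genes are read-outs of afferent subtypes rather than of the lineage. In mice, P2RY1 and NPY2R label separate vagal afferents that reach the lung and alter breathing, and GLP1R labels afferents that sense stretch of the gut wall. NPY1R is another receptor for neuropeptide Y, HTR3A is the obligatory subunit of the serotonin-gated 5-HT3 channel, and CALB1 encodes the calcium buffer calbindin.

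All 24 libraries were of similar depth, with total counts of 33342682 to 39817784, and depth therefore separated no group. Over 16890 genes with the group means removed, libraries of the same batch had a median correlation of 0.637 (36 pairs), against -0.172 between batches (240 pairs). The vehicle library of batch 2 departed most from this: its mean correlation was 0.0554 with its own batch and 0.423 with batch 4, and the vehicle library of batch 4 had 0.165 and 0.418 with batch 2. The libraries of batch 4 with TGF-β (0.442 with its own batch and 0.644 with batch 3) and with IL-4+IL-13 (0.351 and 0.589) were also closer to another batch. Whether the vehicle libraries of batches 2 and 4 were exchanged was not tested, and labels were kept as given, so differences from vehicle within those batches carry this doubt. The comparisons of each gene with vehicle are also given without the vehicle library of batch 2. That library was singled out in these same data, and adjusted p values from fits without it do not allow for this. The 12 pan-neuronal genes were detected in every library, with a summed level of 16.38 to 19.03 on the log2 scale, and the pluripotency gene POU5F1 had at most 1 count in any library. PRDM12, the jugular marker, was detected throughout with a vehicle level of 6.36 ± 0.73, and so was P2RX3, an ATP-gated channel of vagal afferents, at 11.30 ± 1.21 (SD, n = 6 each). PHOX2A was detected in every library too, and since autonomic neurons also express it and autonomic genes were present, its level is not specific to nodose-type cells.

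The 7 genes spanned a wide range of abundance in vehicle cultures when normalised counts were divided by the length of their merged exons. CALB1 and PHOX2A were the most abundant, with 237 ± 152 and 191 ± 164 normalised counts per kb (SD, n = 6 each). GLP1R and NPY1R followed with 104 ± 76.1 and 95.3 ± 45.2 per kb, and P2RY1 stood at 23.4 ± 18.2 per kb. HTR3A and NPY2R were near the limit of detection, at 5.98 ± 3.15 and 1.41 ± 1.52 per kb. Within single libraries the order of CALB1 and PHOX2A was open, since CALB1 was the higher of the pair in 3 of 6, as was GLP1R against NPY1R, and PHOX2A was above GLP1R in 4 of 6. NPY1R was above P2RY1 in 6 of 6 vehicle libraries, P2RY1 above HTR3A in 5 of 6 and HTR3A above NPY2R in 6 of 6, although the ranges of every neighbouring pair overlapped over the libraries. The order at the top depended on the length used. With the length of the MANE Select transcript, which is 2533 bases for CALB1 in place of 7138 for the merged exons, CALB1 had 666 ± 428 counts per kb and was above PHOX2A (200 ± 172) in 6 of 6 libraries, and NPY1R (137 ± 65.1) passed GLP1R.

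**Figure D1:**
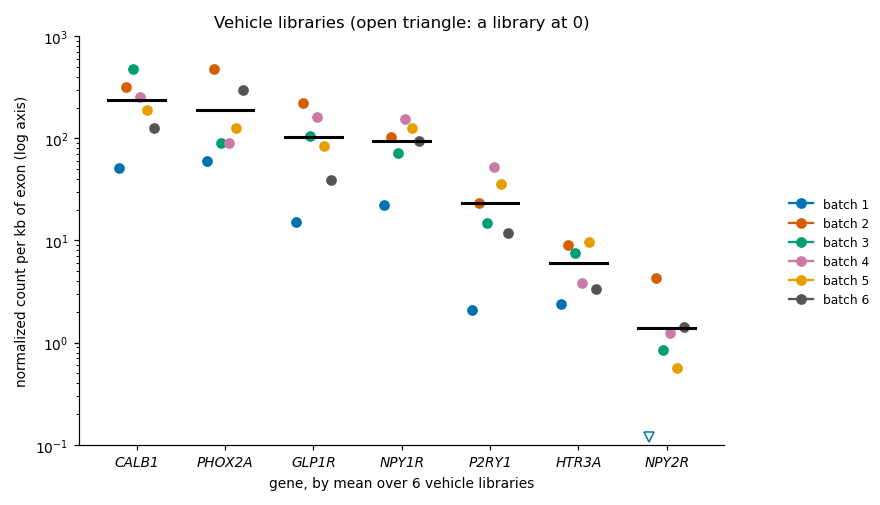
Normalised counts per kilobase of merged exon (vertical log axis) for each gene in the 6 vehicle libraries (points, coloured by batch), with the mean as a bar and an open triangle for a library at 0. CALB1, PHOX2A, GLP1R and NPY1R overlap at 95.3 to 237 on average, and HTR3A and NPY2R lie lowest.

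In GENCODE v44 on GRCh38, PHOX2A lies at chr11:72239077-72245664 on the minus strand and shares 71 bases of exon, 3.98% of its own, with INPPL1 on the other strand. GLP1R lies at chr6:39048781-39091303, P2RY1 at chr3:152835131-152841439 and HTR3A at chr11:113975075-113990313, all on the plus strand, and CALB1 at chr8:90058608-90095475 on the minus strand. NPY2R, at chr4:155208636-155217078 on the plus strand, shares 66 bases (1.82%) with its antisense RNA NPY2R-AS1. NPY1R, at chr4:163323962-163344832 on the minus strand, shares 528 exon bases, 13.3% of its own, with the head-to-head gene NPY5R. Whether reads were counted by strand is not given in the sources used here, so reads from these shared stretches may have gone to either gene.

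The differentiation batch, not the treatment, carried most of the spread of the more abundant genes. Batches accounted for 82.9% of the variance of the log2 level in GLP1R, 80.0% in CALB1, 73.5% in P2RY1, 60.0% in PHOX2A and 54.2% in NPY1R. For the sparse genes NPY2R and HTR3A the share was 33.5% and 32.2%. Treatment groups accounted for 2.52% (P2RY1) to 11.1% (NPY2R). Levels are log2(normalised count + 1) from here on, and batches were described and not tested, because the 4 libraries of a batch share 1 differentiation. Batch 1 was lowest for GLP1R and P2RY1 in every group, and batches 3 and 4 were highest for CALB1 in every treated group. P2RY1 was instead highest in batch 2 in all 3 treated groups, and PHOX2A in batch 6, so no single batch was richest in all of the markers.

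**Figure D2:**
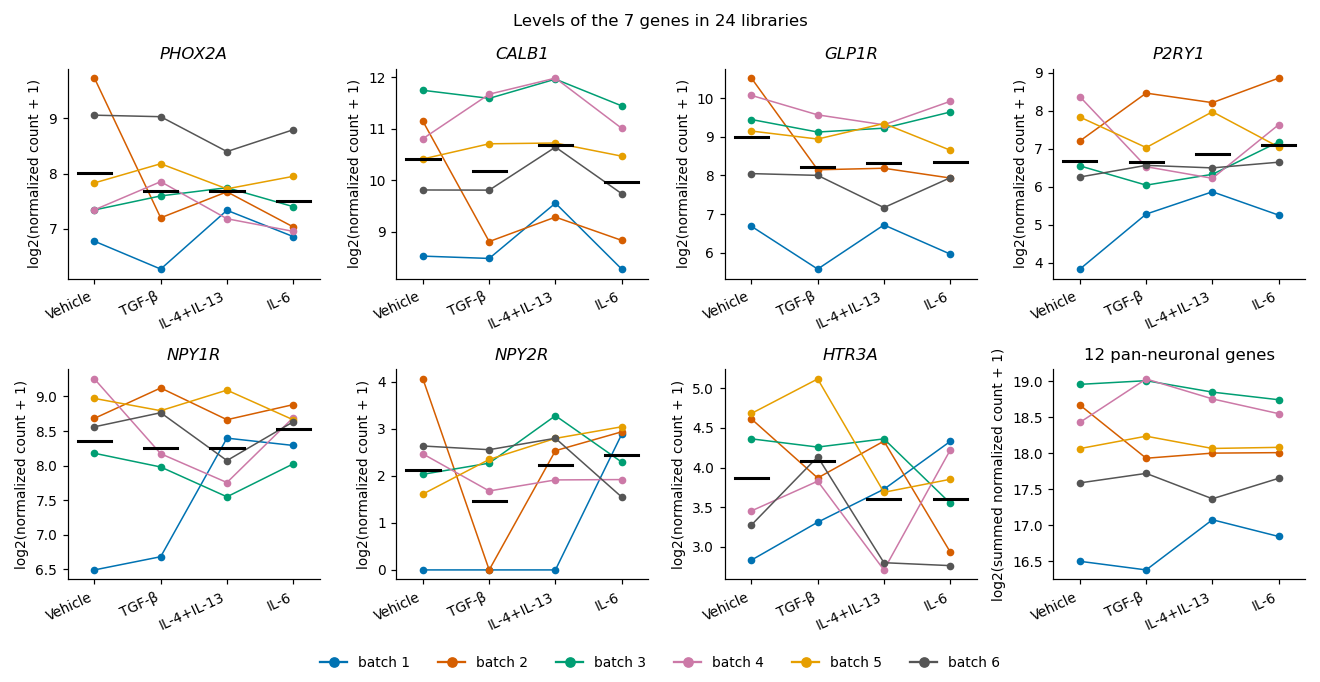
Levels as log2(normalised count + 1) of the 7 genes and, in the last panel, the summed level of 12 pan-neuronal genes, in the 4 groups, with 1 point per library, a line per batch and, for the 7 genes, the group mean as a bar. The vehicle library of batch 2 lies above the treated libraries of its batch by 1.86 to 2.70 for PHOX2A, CALB1 and GLP1R, and batch lines otherwise lie further apart than group means.

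None of the 7 genes was called in any comparison. Calls came from edgeR's quasi-likelihood test with batch as a block and needed a log2 fold change further from 0 than 1, with a Benjamini-Hochberg adjusted p, over 29377 entries, below 0.05. Values after ± beside a fold change are standard errors. With TGF-β against vehicle 0 of 7 were called, where 0.143% of all entries were, and with IL-4+IL-13 against vehicle 0 of 7, where 0.371% were. IL-6 against vehicle gave 0 of 7 and 0% of all entries by edgeR. Between treatments 0 of 7 were called with TGF-β against IL-4+IL-13 (1.18% of all entries), TGF-β against IL-6 (0.0306%) and IL-4+IL-13 against IL-6 (0.279%). The test for any difference over the 4 groups, which sets no fold, also called 0 of 7 (1.81% of all entries). A count of 0 of 7 lies near such backgrounds and is no result about the members, so the size of each difference is given instead. Counts of 0 in the short gene lists below lie near them too and are no result about those genes. DESeq2 also called 0 of 7 throughout, and called 0.797%, 0.994% and 0.408% of all entries in the 3 comparisons with vehicle, in the order above. Its backgrounds between treatments, in that order too, were 2.13%, 0.844% and 0.868%, and 5.67% for any difference. Of the 42 pairwise comparisons of a member, 4 fell below 0.05 before adjustment, of which 3 were GLP1R against vehicle and 1 was CALB1 between IL-4+IL-13 and IL-6. Over all entries 7.29%, 9.1% and 4.77% did so against vehicle, 12.2%, 7.5% and 4.57% between treatments and 9.62% for any difference, all by edgeR. Standard errors of the log2 fold changes were 0.30 to 0.40, and 0.75 to 0.82 for NPY2R. The ranges of vehicle and treated libraries overlapped in 21 of 21 member comparisons with vehicle. These ranges hold the spread between batches and ignore the pairing within them, so their overlap says little about treatment. The 3 comparisons with vehicle share their vehicle libraries, and a vehicle library that stands apart moves all 3 at once.

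**Figure D3:**
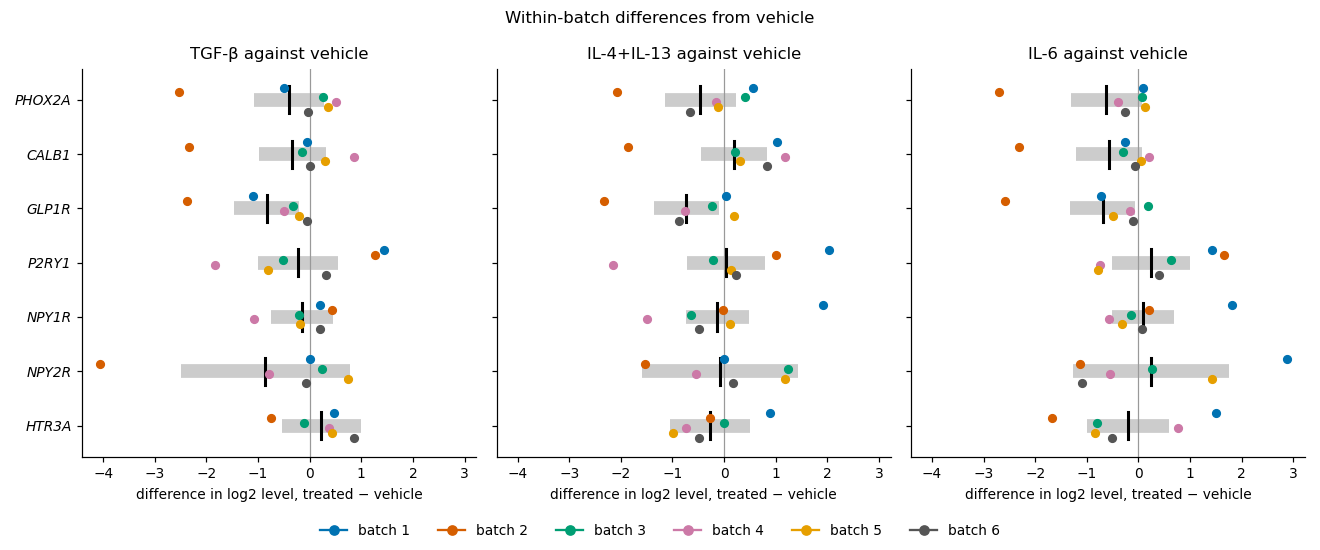
Difference in log2 level between a treated library and the vehicle library of its batch (horizontal axis) for each gene, with 1 point per batch, the edgeR log2 fold change as a black tick and 2 standard errors either side as a grey band. For PHOX2A, CALB1 and GLP1R the points of batch 2 lie between -2.70 and -1.86, and those of the other batches lie nearer to 0.

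PHOX2A was the only lineage gene in the set, and its group levels lay close together. Vehicle libraries ranged from 6.77 to 9.73 with a median of 7.58, and TGF-β libraries from 6.26 to 9.03 with a median of 7.72. IL-4+IL-13 libraries ranged from 7.18 to 8.40 (median 7.69) and IL-6 libraries from 6.85 to 8.80 (median 7.21). All 4 groups overlapped, and the highest vehicle level was that of batch 2, which stood at 9.73 beside 7.03 to 7.67 in its treated libraries. The log2 fold change against vehicle was -0.40 ± 0.34 with TGF-β, -0.46 ± 0.34 with IL-4+IL-13 and -0.62 ± 0.34 with IL-6 (SE, edgeR adjusted p = 0.914, 0.727 and 0.850). These came mostly from batch 2. Without its vehicle library they were 0.10, 0.09 and -0.11, and the other 5 batches were mixed in direction under each treatment. When the vehicle library of batch 4 was left out instead, the PHOX2A values were -0.50, -0.55 and -0.72.

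CALB1 was higher with IL-4+IL-13 than with either other cytokine treatment in every batch, although it was not called. Its level was 8.53 to 11.75 in vehicle (median 10.61), 8.48 to 11.67 with TGF-β (median 10.26), 9.29 to 11.99 with IL-4+IL-13 (median 10.68) and 8.28 to 11.45 with IL-6 (median 10.11). Group ranges overlapped almost entirely because batches differed by more than treatments did. Within batches, however, the IL-4+IL-13 library was above the TGF-β library in 6 of 6 (by 0.01 to 1.07) and above the IL-6 library in 6 of 6 (by 0.25 to 1.28). In batches 1 to 6 the IL-4+IL-13 level was 9.56, 9.29, 11.97, 11.99, 10.72 and 10.64, against 8.28, 8.83, 11.45, 11.01, 10.47 and 9.74 with IL-6. The edgeR log2 fold change was 0.76 ± 0.31 for IL-4+IL-13 against IL-6 (adjusted p = 0.897) and -0.53 ± 0.31 for TGF-β against IL-4+IL-13 (adjusted p = 0.579). Against vehicle CALB1 was higher with IL-4+IL-13 in 5 of 6 batches, by 0.22 to 1.18, and lower by 1.86 in batch 2, so that the fold change was only 0.19 ± 0.32 (adjusted p = 0.910). TGF-β and IL-6 against vehicle were -0.33 ± 0.32 and -0.57 ± 0.32 (edgeR adjusted p = 0.934 and 0.850).

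The vehicle library of batch 2 decided that value. Its CALB1 level was 11.15, where the 3 treated libraries of the batch stood at 8.81 to 9.29. Without it, IL-4+IL-13 against vehicle was 0.70 ± 0.14, a 1.62-fold difference (edgeR adjusted p = 0.0163), with 5 of the other 5 batches higher. IL-4+IL-13 against IL-6 was then 0.74 ± 0.13 (adjusted p = 0.00538), and TGF-β against IL-4+IL-13 was -0.53 ± 0.13 (adjusted p = 0.0204), so the sizes hardly moved while the standard errors fell. TGF-β and IL-6 against vehicle were 0.17 ± 0.14 and -0.05 ± 0.14 (adjusted p = 0.742 and 1). All 3 differences that involve IL-4+IL-13 passed the adjusted p of 0.05 in that fit but not the log2 fold of 1, so they were not called. At any fold 0.765%, 0.752% and 4.93% of 29271 entries passed against vehicle, against IL-6 and between TGF-β and IL-4+IL-13, and with the fold threshold 0.407%, 0.355% and 1.42%. In the other 3 comparisons 0 of 7 passed at any fold, where 0.396% (TGF-β against vehicle), 0% (IL-6 against vehicle) and 0.56% (TGF-β against IL-6) of all entries did, or 0.143%, 0% and 0.126% with the fold threshold. The test for any difference over the groups called CALB1 alone of the 7 (edgeR adjusted p = 0.00488), beside 3.03% of all entries. With batch 2 left out of every group the fold changes for CALB1 were 0.72 against vehicle, 0.80 against IL-6 and -0.53 for TGF-β against IL-4+IL-13 (adjusted p = 0.0258, 0.0126 and 0.0447). With batch 4 also left out, CALB1 had 0.61 against vehicle with an adjusted p of 0.0879. Leaving out the vehicle library of batch 4 instead gave 0.01 (edgeR adjusted p = 0.994), and leaving out batch 1, 4 or 6 from every group gave 0.01, 0.02 and 0.06. The CALB1 difference from vehicle thus depended on the libraries kept. Only batch 2 had been lower, so 5 of 5 higher followed from leaving out its vehicle library, which was singled out in these same data. The size of the IL-4+IL-13 against IL-6 difference was 0.65 to 0.86 over the 8 fits that left out 1 batch, or the vehicle library of batch 2 or 4. Its adjusted p was below 0.05 only in those without batch 2 or its vehicle library. Without the vehicle library of batch 4 the edgeR adjusted p was 0.790.

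**Figure D4:**
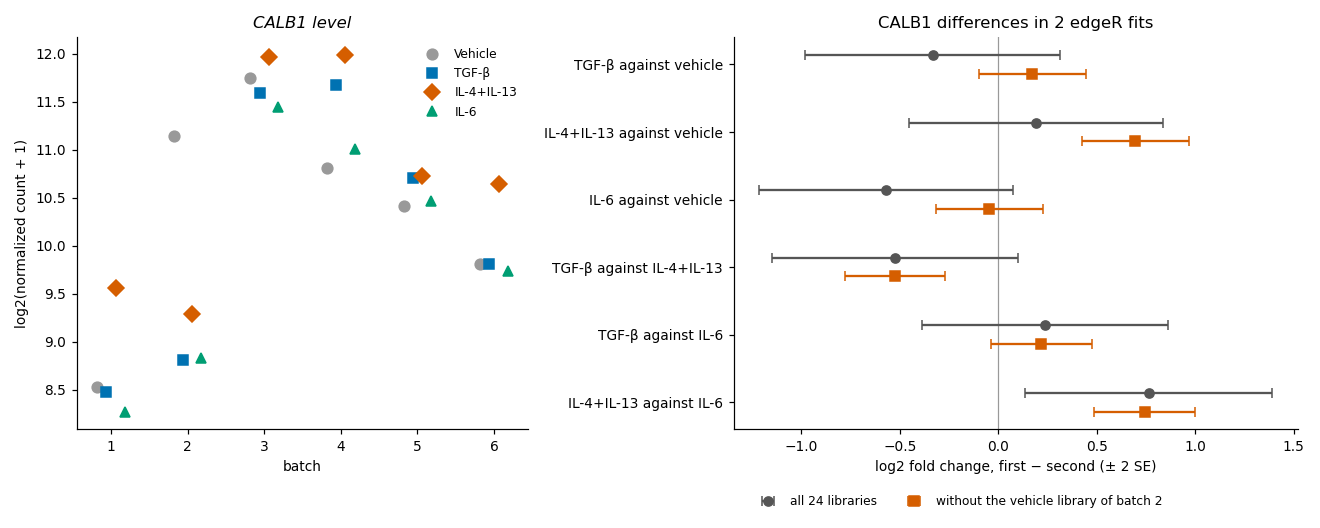
Left, CALB1 level as log2(normalised count + 1) by batch, with a symbol per group. Right, CALB1 log2 fold changes with bars of 2 standard errors from edgeR with all 24 libraries (circles) and without the vehicle library of batch 2 (squares), where IL-4+IL-13 against vehicle moves from 0.19 to 0.70 and the bars shorten.

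The CALB1 difference between treatments was also seen relative to neuronal genes. CALB1 less the summed pan-neuronal level of the same library was higher with IL-4+IL-13 than with IL-6 in 6 of 6 batches, by 0.27 to 1.19, and lower in TGF-β libraries than in IL-4+IL-13 libraries in 6 of 6, by 0.19 to 1.19. Against vehicle the same difference was above 0 in 5 of 6 batches and was -1.19 in batch 2. In batch 2 other cell markers moved as well: the summed level of 3 cycling genes was 10.88 in the vehicle library and 13.33 to 13.79 in its treated libraries, that of 12 pan-neuronal genes 18.67 against 17.93 to 18.01, and that of 8 mesenchymal genes 18.18 against 17.02 to 17.38. The part of these in the batch 2 differences of PHOX2A, CALB1 and GLP1R was not tested. Other calcium buffers, namely CALB2, PVALB and SCGN, had 0 of 3 tested genes called in any comparison with vehicle. CALB2, which encodes calretinin, had a vehicle level of 10.55 ± 1.06 and a log2 fold change of -0.27 with IL-6, and the medians of the list were -0.07 with TGF-β, -0.12 with IL-4+IL-13 and -0.11 with IL-6, beside -0.01 over all entries in each. Without the vehicle library of batch 2 they were 0.22, -0.02 and 0.25.

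GLP1R, the receptor for glucagon-like peptide 1, had the lowest unadjusted p values against vehicle. Its level was 6.69 to 10.52 in vehicle (median 9.30), 5.58 to 9.57 with TGF-β (median 8.55), 6.72 to 9.34 with IL-4+IL-13 (median 8.71) and 5.97 to 9.92 with IL-6 (median 8.30). Every group overlapped every other, and batch 1 gave the lowest library of each. Within batches TGF-β was below vehicle in 6 of 6, by 0.05 to 2.37, and the log2 fold change was -0.83 ± 0.31 (edgeR adjusted p = 0.464). IL-4+IL-13 was below vehicle in 4 of 6 batches with -0.73 ± 0.31 (edgeR adjusted p = 0.496), and IL-6 in 5 of 6 with -0.70 ± 0.31 (edgeR adjusted p = 0.850). Batch 2 again gave the widest gap, with 10.52 in vehicle and 7.93 to 8.19 in its treated libraries. Without that vehicle library the values were -0.38 ± 0.20, -0.28 ± 0.20 and -0.26 ± 0.20, which cut each by more than 1.5 times (edgeR adjusted p = 0.546, 0.863 and 1), and TGF-β stayed lower in 5 of the other 5 batches. When the vehicle library of batch 4 was left out instead, the GLP1R values were -0.89, -0.79 and -0.76. GLP1R less the pan-neuronal level was below 0 with TGF-β in 6 of 6 batches, by 0.18 to 1.63. The treatments were close to each other: TGF-β against IL-4+IL-13 was -0.11 ± 0.31 and IL-4+IL-13 against IL-6 -0.03 ± 0.31.

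Genes around this receptor were followed as a list of 7, of which GCG, the precursor of the ligand, had 0 to 2 counts and was not tested, and GCGR was at most at 2 counts. Of 5 tested genes 0 were called, and 5 of 5 had fold changes below 0 under each treatment, with medians of -0.45 with TGF-β, -0.86 with IL-4+IL-13 and -0.65 with IL-6. These values leaned on batch 2, whose vehicle library had a summed list level of 14.34 beside 11.34 to 11.75 in its treated libraries. Without that vehicle library the medians of the GLP-1 list were -0.06, -0.26 and -0.19, with 3, 5 and 4 of 5 genes below 0. GLP2R, the receptor for the related peptide GLP-2, had -0.80 and -0.98 in TGF-β and in IL-4+IL-13 libraries (adjusted p = 0.766 and 0.510), and the prohormone convertase PCSK1 -0.85 with IL-6 (edgeR adjusted p = 0.850). Without that library GLP2R had -0.28 and -0.47, and PCSK1 -0.22. None of these passed the test.

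P2RY1, a purinergic receptor for ADP, had the widest range over the libraries, 5.03, while its SD of 1.16 was below that of GLP1R, 1.31. Vehicle ranged from 3.83 to 8.37 (median 6.88), TGF-β from 5.28 to 8.47 (median 6.55), IL-4+IL-13 from 5.87 to 8.22 (median 6.41) and IL-6 from 5.25 to 8.86 (median 7.11). The treated libraries sat above vehicle in batches 1, 2 and 6, and below it in batch 4, where vehicle had 8.37 and the treated libraries 6.22 to 7.63. These opposite batches left fold changes of -0.22 ± 0.39, 0.03 ± 0.38 and 0.24 ± 0.38 against vehicle, in the same order of treatments (edgeR adjusted p = 0.974, 0.995 and 0.925). Without the vehicle library of batch 2 they were -0.48, -0.20 and 0.01, so that the IL-4+IL-13 value changed sign. Without the vehicle library of batch 4 they were 0.21, 0.43 and 0.72, and the TGF-β value changed sign. Among the other P2Y receptors and the enzymes that break down extracellular nucleotides, 0 of 9 tested genes were called against vehicle. P2RY6, a receptor for UDP, was higher in TGF-β libraries than in IL-4+IL-13 libraries by 1.37 ± 0.34 (edgeR adjusted p = 0.0289, 5 of 6 batches). It was the 1 gene of the 9 called there, where 1.18% of all entries were. The list median was 0.09 with TGF-β, -0.56 with IL-4+IL-13 and -0.40 with IL-6, or 0.43, -0.22 and -0.07 without the vehicle library of batch 2. Its extremes with TGF-β, P2RY4 at -1.53 and P2RY12 at 2.37, were sparse genes that did not pass the test. P2RY14, at -2.16 with IL-4+IL-13 and -1.76 with IL-6, did not pass either.

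NPY1R had the narrowest spread of the well-counted receptors. Its level was 6.49 to 9.25 in vehicle (median 8.62), 6.68 to 9.12 with TGF-β (median 8.47), 7.55 to 9.09 with IL-4+IL-13 (median 8.23) and 8.02 to 8.88 with IL-6 (median 8.65). The SD over batches was 0.99 in vehicle and 0.31 with IL-6, whose batch 1 library stood at 8.29 where vehicle had 6.49. Fold changes were -0.15 ± 0.30, -0.13 ± 0.31 and 0.08 ± 0.30 (edgeR adjusted p = 0.978, 0.941 and 0.972). Batches pulled in opposite directions: under IL-4+IL-13 it was 8.40 beside 6.49 in vehicle in batch 1, and 7.75 beside 9.25 in batch 4. Without batch 1 the IL-4+IL-13 difference for NPY1R was -0.50 (edgeR adjusted p = 0.486). Without the vehicle library of batch 2 the 3 fold changes of NPY1R were -0.22, -0.19 and 0.02, and without that of batch 4 they were 0.09, 0.10 and 0.34, so both negative values changed sign. NPY5R, its neighbour and another neuropeptide Y receptor, was at 6.52 ± 1.60 in vehicle and had -0.24 ± 0.55, -0.11 ± 0.56 and 0.25 ± 0.54.

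NPY2R was too sparse to compare. Its counts were 0 to 16 in vehicle, 0 to 5 with TGF-β, 0 to 8 with IL-4+IL-13 and 2 to 7 with IL-6, and batch 1 had 0 counts in all groups but IL-6. The highest count, 16, was in the vehicle library of batch 2, whose TGF-β library had 0. Log2 fold changes were -0.86 ± 0.82, -0.07 ± 0.76 and 0.24 ± 0.75, and without that vehicle library -0.29, 0.59 and 0.96. Intervals of 2 SE either side were wide, from -2.50 to 0.79 for TGF-β, so the depth of NPY2R allowed no firm statement. For the ligand NPY the level was 2.27 in vehicle and 3.75 with IL-6, a log2 fold change of 1.26 ± 0.75 (edgeR adjusted p = 0.850), or 0.85 ± 0.70 without the vehicle library of batch 2. Over the rest of the neuropeptide Y genes 0 of 5 tested were called against vehicle, with medians of -0.24, -0.41 and 0.25, or -0.21, -0.45 and 0.03 without the vehicle library of batch 2. DPP4, which cleaves both neuropeptide Y and GLP-1, had -0.86 with IL-4+IL-13 (edgeR adjusted p = 0.404). PYY and NPY4R had the lowest and highest edgeR log2 fold changes of the list with TGF-β, at -0.70 and 0.37.

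HTR3A was detected in every library with 6 to 33 counts. Vehicle ranged from 2.83 to 4.68 (median 3.91), TGF-β from 3.31 to 5.12 (median 4.00), IL-4+IL-13 from 2.71 to 4.36 (median 3.71) and IL-6 from 2.76 to 4.33 (median 3.70). The groups overlapped throughout, and fold changes were 0.22 ± 0.38, -0.28 ± 0.39 and -0.21 ± 0.40 (edgeR adjusted p = 0.973, 0.884 and 0.942). Without the vehicle library of batch 2 they were 0.38, -0.09 and -0.06. HTR3B, the partner subunit that changes the conductance of the channel, had 0 to 8 counts, and 0 of 6 tested serotonin genes were called against vehicle. The serotonin list had medians of -0.14, 0.45 and -0.15, or -0.02, 0.41 and 0.06 without the vehicle library of batch 2, and its lowest gene with TGF-β by mean within-batch difference, the synthetic enzyme TPH1 at -1.63, had an edgeR adjusted p of 0.663. HTR3B had 2.27 with IL-4+IL-13 and 2.11 with IL-6 (edgeR adjusted p = 0.611 and 0.850). The serotonin transporter SLC6A4 was lowest with IL-6 by mean within-batch difference at -0.24, and TPH2 lowest with IL-4+IL-13 by edgeR log2 fold change at -0.28. By edgeR the lowest log2 fold change of the list was -1.91 with TGF-β and -0.51 with IL-6.

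Which of the 7 genes varied together depended on whether batches were compared or libraries within them. Pearson correlations over the 24 libraries are given as descriptions, since libraries share batches and the points are not independent. Over all libraries GLP1R and CALB1 went together (r = 0.810), and both followed the pan-neuronal level (r = 0.913 and 0.862), whereas PHOX2A followed it little (r = 0.231). After the batch mean was subtracted PHOX2A paired with GLP1R (r = 0.802) and CALB1 (r = 0.737). That second pattern rested on batch 2: without it the values were 0.355 and 0.242, and GLP1R with CALB1 went from 0.532 to -0.213.

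NPY1R and P2RY1 formed a second pair that did not lean on that batch. Their correlation was 0.818 over 24 libraries and 0.695 after subtraction of the batch mean, and 0.824 and 0.735 over 20 libraries. NPY5R went with both, at 0.884 with NPY1R and 0.816 with P2RY1, and within batches at 0.839 and 0.855. NPY1R and NPY5R share exon sequence, and the part of shared reads in their correlation was not tested. After subtraction of the batch mean, P2RY1 ran against the pan-neuronal level (r = -0.357), unlike GLP1R (0.544), CALB1 (0.669) and PHOX2A (0.817). Without that subtraction P2RY1 rose with the pan-neuronal level over the 24 libraries (r = 0.474). These correlations with the pan-neuronal level are given only with that batch included. Whether they leaned on it was not tested.

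**Figure D5:**
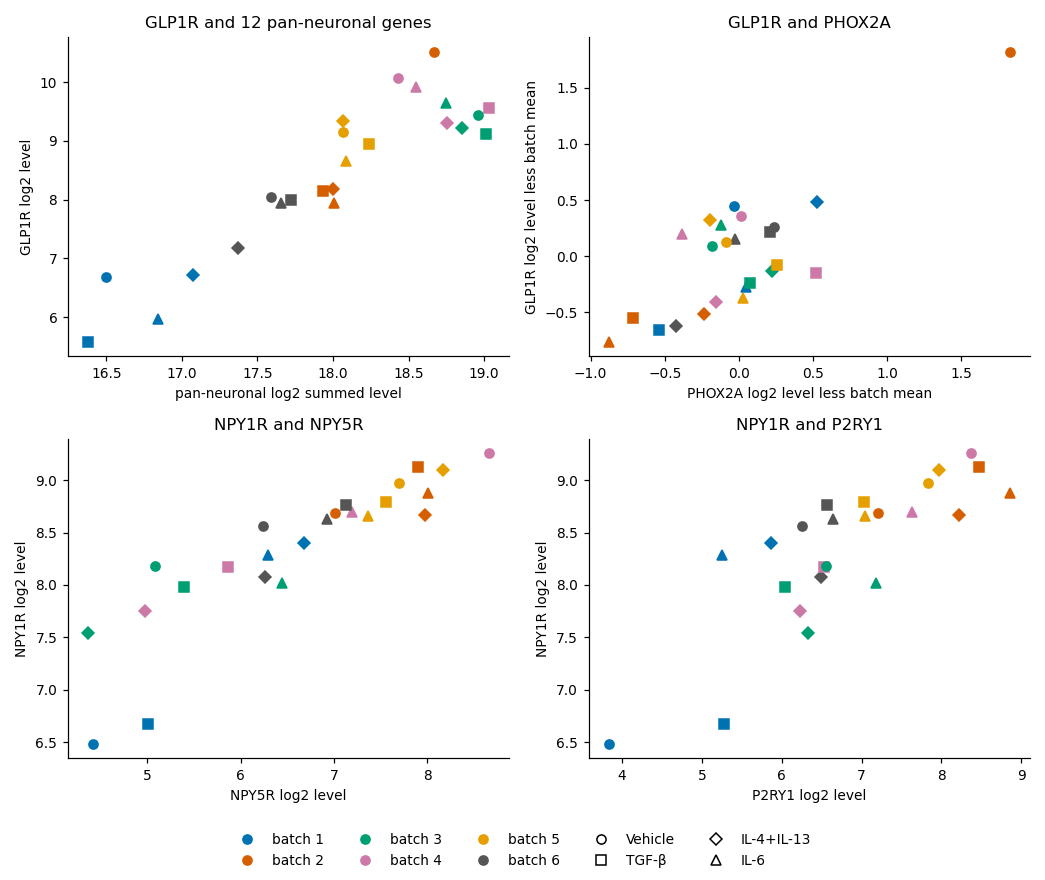
Levels as log2(normalised count + 1) of pairs of genes in 24 libraries, coloured by batch with a symbol per group, and in the upper right panel the levels less the batch mean. GLP1R rises with the summed pan-neuronal level (r = 0.913), the vehicle library of batch 2 lies apart in the upper right panel, and NPY1R rises with NPY5R and P2RY1 (r = 0.884 and 0.818).

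The genes whose levels were most like those of each member were found among 13226 genes, or 13227 for NPY2R and HTR3A. For CALB1 these were SPOCK2, CPE and CARMIL2 over the libraries (r = 0.967, 0.964 and 0.962) and GUCY1B1, SPOCK2 and RAI2 within batches (0.964, 0.956 and 0.931). GLP1R was nearest to CAMKV, PPFIA4 and PDE4C (0.961, 0.952 and 0.951), and within batches to CPNE4, CHST2 and NDRG2 (0.894, 0.876 and 0.868). PHOX2A was nearest to DGKB, TFAP2A and CSMD3 (0.883, 0.871 and 0.845), and within batches to CACNB2, BRINP1 and the synaptic gene SNAP25 (0.958, 0.952 and 0.947). P2RY1 had ADCYAP1R1, CDK14 and SLIT1 (0.954, 0.953 and 0.952) and within batches PTN, MTUS2 and NR2F1 (0.917, 0.915 and 0.907). NPY1R was the gene with the steadiest neighbours, since SH3GL2 and MAB21L2 led in both rankings (0.939 and 0.938 over the libraries, 0.925 and 0.927 within batches). The sparse genes had weaker neighbours, led by CITED1 for NPY2R (0.712, and NAAA at 0.681 within batches) and by STRC for HTR3A (0.727, and 0.758 within batches).

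The start sites of PHOX2A, GLP1R and P2RY1 are shown because these are the members in the promoter reference whose 250 upstream bases overlap no annotated exon. The sequences are those of RefSeq on GRCh38.p14, 5′ to 3′ on the strand of the gene, at chr11:72244177-72244426 (minus), chr6:39048531-39048780 (plus) and chr3:152834881-152835130 (plus). Capitals mark GC boxes (GGGCGG on either strand) and, once in PHOX2A, the CCAAT box (CCAAT on either strand).
PHOX2A: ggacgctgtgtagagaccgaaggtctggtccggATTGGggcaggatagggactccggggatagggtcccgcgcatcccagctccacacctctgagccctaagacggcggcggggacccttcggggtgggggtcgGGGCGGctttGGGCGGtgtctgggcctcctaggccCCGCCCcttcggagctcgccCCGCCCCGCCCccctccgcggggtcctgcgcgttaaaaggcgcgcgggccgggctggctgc
GLP1R: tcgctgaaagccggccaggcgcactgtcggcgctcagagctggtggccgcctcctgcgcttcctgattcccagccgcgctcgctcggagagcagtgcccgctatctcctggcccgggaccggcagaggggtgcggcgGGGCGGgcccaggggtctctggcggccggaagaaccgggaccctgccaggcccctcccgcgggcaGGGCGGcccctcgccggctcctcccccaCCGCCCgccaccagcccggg
P2RY1: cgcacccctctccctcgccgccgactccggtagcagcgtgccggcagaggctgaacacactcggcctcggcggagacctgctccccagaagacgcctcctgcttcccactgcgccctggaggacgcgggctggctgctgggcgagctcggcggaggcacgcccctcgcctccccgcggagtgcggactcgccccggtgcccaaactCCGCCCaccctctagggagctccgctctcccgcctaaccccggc
All 3 windows were rich in G and C, at 73.2%, 77.2% and 74% of bases, and held 5, 3 and 1 GC boxes, where neighbouring boxes may overlap. Of the 5 member promoters in the reference, which lacks those of CALB1 and HTR3A, 3 held a GC box, beside 42.6% of 35116 promoters of this length. The homeodomain core TAAT was found in 1 of 5 (47.4% of all promoters), the STAT motif TTCNNNGAA in 1 of 5, that of NPY2R (6.57%), and its variant with a spacer of 4 bases in 0 of 5 (5.38%). The palindromic SMAD box GTCTAGAC was in 0 of 5 (0.182%), and the shorter SMAD site GTCT in 5 of 5 (77.5%). The paired homeodomain palindrome, TGACGTCA and TATAAA were in 0 of 5 (0.33%, 1.65% and 10.7% of all promoters), CAGCTG in 1 of 5 (14%) and CCAAT in 1 of 5 (32%). These letters were read on both strands and are a description of the windows, not of binding.

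Other genes of vagal and airway afferents were followed as a list of 18. Of 18 such genes, 0 were called with TGF-β against vehicle (0.143% of all entries) and with IL-6 against vehicle (0%), and 1 with IL-4+IL-13 (0.371%). CYSLTR2, a receptor for cysteinyl leukotrienes, rose by 2.16 ± 0.46 with IL-4+IL-13 (edgeR adjusted p = 0.0330, 5 of 6 batches), from a level of 5.05 ± 0.74 to 7.03 ± 1.32 (SD, n = 6 each). CYSLTR2 and CCKAR, a receptor for cholecystokinin, were both lower in TGF-β libraries than in IL-4+IL-13 libraries, at -2.53 ± 0.48 and -1.64 ± 0.36 (edgeR adjusted p = 0.00409 and 0.0139, 6 of 6 batches each). CYSLTR2 was also higher with IL-4+IL-13 than with IL-6, by 2.56 ± 0.48 (edgeR adjusted p = 0.0132). The oxytocin receptor OXTR was lower with TGF-β by 0.86 ± 0.18 on the log2 scale, short of the fold threshold (edgeR adjusted p = 0.0455). CYSLTR2 without the vehicle library of batch 2 had 2.35 ± 0.48 with IL-4+IL-13 against vehicle (edgeR adjusted p = 0.0244), and OXTR no longer passed with TGF-β at -0.85 ± 0.20 (edgeR adjusted p = 0.0839). The medians of the list were -0.06, -0.15 and -0.15, beside about -0.01 over all entries. By edgeR log2 fold change KCNG1 was highest with TGF-β at 0.38 and P2RX3 highest with IL-6 at 0.33. GPR65, a proton sensor at 0 to 4 counts, was lowest with IL-4+IL-13 and with IL-6 at -1.53 and -1.73. Of 7 jugular-type genes 0 were called against vehicle with TGF-β or with IL-6. RUNX1, a factor of nociceptor subtypes, was higher in TGF-β libraries than in IL-4+IL-13 libraries by 1.94 ± 0.27 (edgeR adjusted p = 2.71e-04, 6 of 6 batches). Against vehicle RUNX1 had 1.03 ± 0.26 with TGF-β (edgeR adjusted p = 0.117), and was called at 1.37 ± 0.20 without the vehicle library of batch 2 (edgeR adjusted p = 0.00602). The jugular list had medians of 0.10, -0.11 and -0.35, and of 0.38, 0.17 and 0.08 without the vehicle library of batch 2, with CALCA, the gene of CGRP, lowest by mean within-batch difference with TGF-β and IL-6 at -0.12 and -0.49.

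Markers of the other cells in these cultures were followed as further lists. Against vehicle 0.143% of all entries were called with TGF-β, 0.371% with IL-4+IL-13 and 0% with IL-6. Counts of 0 in these lists are therefore no result about their genes. Pan-neuronal genes had 0 of 12 called against vehicle in any treatment, with medians of 0.06, -0.02 and -0.00, and no gene beyond -0.33 (NEFL with IL-6) or 0.22 (PRPH with TGF-β). Of 6 glial genes 0 were called with IL-4+IL-13 or with IL-6, and the list medians were -0.08, -0.19 and -0.04. Of 9 autonomic genes 0 were called, with medians of -0.01, -0.05 and -0.01, of 8 mesenchymal genes 0 (-0.14, -0.25 and -0.20), of 4 smooth muscle genes 0 (-0.16, -0.22 and 0.12) and of 2 tested pluripotency genes 0, where NANOG had 0 counts in every vehicle library and at most 5 in any other. DBH, an enzyme of noradrenaline synthesis, was the lowest autonomic gene with IL-4+IL-13 at -0.96 and with IL-6 at -1.05 (edgeR adjusted p = 0.637 and 0.850), and HAND2 had at most 4 counts. The 3 cycling genes had medians of 0.54, 0.97 and 0.89, and 0 of 3 were called. The cycling medians without the vehicle library of batch 2 were 0.21, 0.65 and 0.57, the mesenchymal ones 0.20, 0.08 and 0.03 and the pan-neuronal ones 0.14, 0.11 and 0.06, and DBH had 0.05 with IL-4+IL-13 and -0.18 with IL-6. COL1A1 was higher in TGF-β libraries than in IL-4+IL-13 libraries by 1.31 ± 0.26 (edgeR adjusted p = 0.00675). These values stand beside the member comparisons, and their part in them was not tested.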

How the data were processed

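The authors sequenced polyadenylated RNA of whole cultures on an Illumina NovaSeq instrument, trimmed reads with Trimmomatic 0.30 and aligned them to GRCh38.p14. They deposited unnormalised counts of reads for each gene. The aligner, counter and strand setting are not given in the sources used here. Entries with a total count under 10 were dropped, leaving 29377. Treatment was tested with batch as a block in edgeR 4.0.16 (R 4.3.3, TMM, robust quasi-likelihood F test, all 24 libraries) with Benjamini-Hochberg adjustment over all entries, and DESeq2 1.42.0 was an alternative. With batch as a block, p-values set treatment differences against the spread left within batches, not against level differences between differentiations. Same-numbered libraries came from 1 batch per the labels, and same-batch correlations had a median of 0.637 (lowest -0.060). Levels are log2(normalised count + 1) with DESeq2 size factors, and lengths are GENCODE v44 merged exons. Standard errors were taken from the fold change and its F statistic. Scripts were tested on simulated data.

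The 7 genes and the 14 gene lists were chosen with earlier results of these data known. Named genes were the members, list genes that passed the test or had the widest within-batch change in either direction, and the 3 most alike genes per member among genes with a count in every library and a mean of 50 or more. Alternatives covered size factors, filters, the batch block, repeated symbols and left-out libraries. Results of some list genes, and the list counts that rest on them, are not reported here.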

Additional observations from a re-analysis of the deposited data

Results flagged for a closer look

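In 0 of 28 sets of 6 levels, 1 for each gene and group, did the highest or lowest library stand apart from the rest of its group by Dixon's test, which compares a library with its group and not with its batch.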

How the results depend on the processing

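Of 687 member fold changes under an alternative setting 635 kept their direction and 52 reversed, of which 11 had a value beyond 0.3 with all libraries. An edgeR adjusted p under 0.05 was reached by 8, all of CALB1 and all in fits without the vehicle library of batch 2. All 231 alternative levels moved by under 1 SD. Leaving 1 library out of a group cannot move its mean by 1 SD, so for those settings this was fixed in advance. Reversed values without the replicate block (treatment only) were -0.066 (P2RY1, IL-4+IL-13 against vehicle), -0.015 and -0.088 (NPY1R and NPY2R, IL-6 against vehicle), 0.084 (NPY1R, TGF-β against IL-4+IL-13) and 0.018 (HTR3A, IL-4+IL-13 against IL-6). With batches 2 and 4 left out, chosen after seeing the data, PHOX2A, NPY2R and CALB1 were 0.050, 0.28 and 0.025 for TGF-β against vehicle, PHOX2A, NPY1R and NPY2R were 0.072, 0.22 and 0.90 for IL-4+IL-13 against vehicle, PHOX2A was -0.022 for TGF-β against IL-4+IL-13, and GLP1R and P2RY1 were 0.066 and 0.12 for IL-4+IL-13 against IL-6. With only the 12 libraries compared, NPY2R was 0.087 for IL-4+IL-13 against vehicle and NPY1R 0.029 for TGF-β against IL-4+IL-13. The cause was not tested.

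Leaving out a batch or vehicle library in turn gave, for TGF-β against vehicle, PHOX2A -0.59 to 0.14, NPY1R -0.29 to 0.093, P2RY1 -0.51 to 0.23 and CALB1 -0.56 to 0.18. For IL-4+IL-13 against vehicle it gave PHOX2A -0.67 to 0.090, NPY1R -0.50 to 0.18, NPY2R -0.42 to 0.59 and P2RY1 -0.27 to 0.54. For IL-6 against vehicle it gave NPY1R -0.18 to 0.34, NPY2R -0.41 to 0.96, P2RY1 -0.0089 to 0.72 and HTR3A -0.57 to 0.068. For TGF-β against IL-4+IL-13 it gave PHOX2A -0.082 to 0.28, GLP1R -0.31 to 0.075 and NPY1R -0.18 to 0.31, and for IL-4+IL-13 against IL-6 GLP1R -0.20 to 0.10, NPY2R -0.70 to 0.34 and HTR3A -0.35 to 0.27. Members called stayed at 0, or 0 to 1 (CALB1) for any difference over the groups. Calls over all genes moved more: against vehicle TGF-β gave 42 and IL-4+IL-13 109 by edgeR, 234 and 292 by DESeq2, 0 and 13 without the replicate block and 0 and 25 with only the 12 libraries. Between TGF-β and IL-4+IL-13 they were 347 by edgeR, 627 by DESeq2 and 49 without the block, and for any difference over the groups 532, 1279 and 44.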
